A study of Mus musculus with 10 samples.

Results

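The genes described here are 38 ribosome biogenesis factors, the proteins that make and assemble ribosomes without being part of the finished particle. They were taken by name, as the probe sets whose only annotated gene symbol is 1 of these genes, and where a gene had several such probe sets the one with the highest mean over all arrays was used. Of the 38 genes, 36 had such a probe set among the 23410 tested probe sets with at least 1 gene symbol. The 60S factor Ppan shared its probe set with another gene, and Noc2l was not matched to a one-gene probe set.

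Ribosomes are built in the nucleolus. RNA polymerase I transcribes a long precursor of ribosomal RNA, small nucleolar ribonucleoproteins (snoRNPs) modify and help to cut it, and large sets of assembly factors fold it with ribosomal proteins into the 40S and 60S subunits. Adult haematopoietic stem cells (HSCs) are known for a low rate of protein synthesis, and the transcription factor MYC is a well-known activator of ribosome biogenesis genes.

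The data are 10 Affymetrix Mouse Gene ST 1.0 arrays, each of HSCs sorted from the bone marrow of 8-week-old mice. The 5 transgenic samples came from mice that carry (tetO)7CMVSox17-IRES-NucEGFP together with the doxycycline-dependent activator rtTA*M2 at the ROSA26 locus. The 5 wild-type samples came from littermates. Both groups drank doxycycline at 2 mg/ml for 5 days, which by design turns on the Sox17 transgene where the activator is present. ROSA26 is broadly active, so the activator is not limited to HSCs. Each sample was 10000 cells sorted as CD150+CD48-Lineage-Sca1+cKit+. The labels do not say which animal an aliquot came from, so the spread behind the p-values is that of these aliquots and can be partly technical. The comparison asks whether induced Sox17, a transcription factor that fetal HSCs need, changes the expression of these factors in adult HSCs.

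The arrays were split into 2 sets by their own values. Each group's mean was removed first, so each set holds arrays of both groups by construction. Set A held transgenic arrays 1, 2 and 3 and wild-type arrays 1 and 2, and set B held the other arrays. The sets were read from the leading principal component of the array values after removal of each group's mean, which held 40.1% of the variance, and the labels name no batch. Xist was near the floor on transgenic array 4 alone (4.32), and no other array was below 10.8. The Sox17 probe set had a mean of 4.37 ± 0.13 in transgenic HSCs and 4.21 ± 0.13 in wild-type HSCs (SD, n = 5 each; limma, adjusted p = 0.855), so the direction of each difference rests on the labels. The arrays themselves do not show that the transgene was induced. All 8 measured HSC markers were brighter than the median tested probe set. So were 2 of 3 multipotent progenitor, 5 of 6 megakaryocyte and platelet, 3 of 6 erythroid, 4 of 10 granulocyte and monocyte, 1 of 5 B cell and 2 of 7 T and NK cell markers. Between the groups, 3 HSC markers were higher and 1 lower at an unadjusted p under 0.05, with 0 of 8 past the threshold (limma) and a median difference of 0.21.

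None of the 36 measured ribosome biogenesis factors passed the threshold between transgenic and wild-type HSCs. With limma and Benjamini-Hochberg adjustment over all 23410 probe sets, 0 of 36 had an adjusted p under 0.05, as against 0.141% of all tested probe sets. The U3 snoRNP protein Rrp9 was the 1 member with an unadjusted p under 0.05, which is 2.78% of the members and 6.59% of all tested probe sets. Log2 differences, transgenic minus wild type, ran between -0.49 for Rrp9 and 0.20 for Heatr1, with a median of -0.06 over the members and -0.01 over all tested probe sets. They were below 0 for 23 of the 36 members (63.9%) and for 53.7% of all tested probe sets. In bulk RNA, fewer cells of a type and less RNA per cell cannot be told apart.

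The intervals bound how large a difference could have been missed. For 30 of the 36 members the 95% interval of the difference lay within a 1.5-fold change in either direction, as it did for 81.7% of all tested probe sets. The 6 members whose interval reached past 1.5-fold were Rrp9, Nop56, Noc3l, Polr1a, Bysl and Heatr1. The groups overlapped for all 36 members, where 1.47% of all tested probe sets had groups that did not overlap. As to signal, 35 of the 36 members were brighter than the median tested probe set, the exception being Rrp12. Rrp9 was dim too. Rrp12, Rrp9 and Bop1 averaged 5.67, 5.68 and 5.84 in transgenic HSCs, and 12555 of the 23410 tested probe sets averaged below 6 there.

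**Figure D1:**
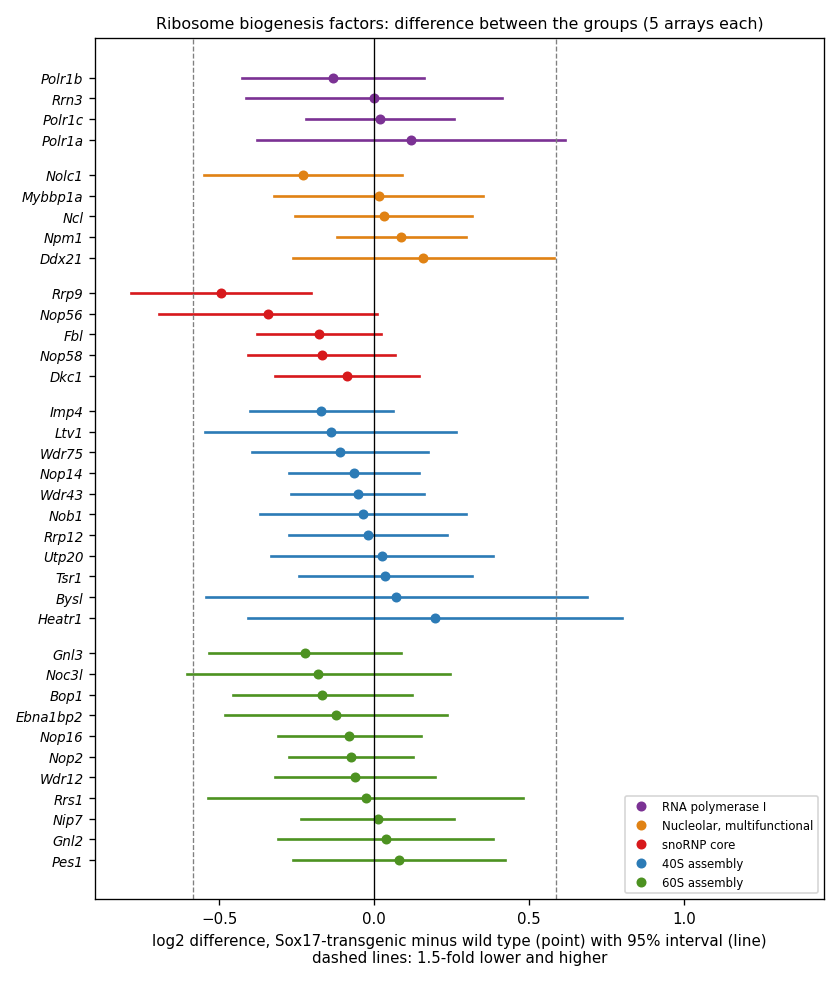
Log2 difference (transgenic minus wild type, 5 arrays each) of the 36 measured ribosome biogenesis factors on the x axis, grouped by role down the page, with points for the estimates and lines for limma 95% intervals. The dashed lines mark a 1.5-fold change, and the interval of Rrp9 alone does not cover 0.

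Promoter sequence was set beside these values because the E-box CACGTG, which reads the same on both strands, is the textbook binding site of MYC with its partner MAX. RefSeq promoter windows (GRCm38.p6, 250 bases before to 50 after each start) were matched for 32 of the 38 genes. CACGTG was present in the windows of 9 of these 32 genes (28.1%), of 14 of 89 other ribosome biogenesis factors (15.7%), and of 9.52% of 15563 genes with a one-gene probe set on the array. The 9 genes were Imp4, Ltv1, Mybbp1a, Nop2, Pes1, Rrn3, Tsr1, Utp20 and Wdr43. CCAAT, searched on both strands, was in 28.1% of the members' windows and 41.7% of those of array genes, and GGGCGG in 78.1% of the members' windows and 53.0% of those of array genes. A base could count in more than 1 match. The median G+C content of the windows was 59.3% for members and 57.7% for array genes. A match is a run of letters, and no binding was measured.

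The members with CACGTG had a median log2 difference of -0.0003 (9 measured), against -0.08 for the members without it (21 measured), and 0 members of either kind passed the threshold (limma). The bases before the start are shown for the 3 genes whose CACGTG lies wholly before it, with the motif in capitals, read 5′ to 3′ on the gene's strand. Imp4 is on the plus strand at chr1:34439679-34439828, Nop2 on the plus strand at chr6:125131733-125131882 and Rrn3 on the plus strand at chr16:13780449-13780698, all ending at the base before the start. Imp4 and Nop2 carry 1 copy each and Rrn3 carries 2.
Imp4: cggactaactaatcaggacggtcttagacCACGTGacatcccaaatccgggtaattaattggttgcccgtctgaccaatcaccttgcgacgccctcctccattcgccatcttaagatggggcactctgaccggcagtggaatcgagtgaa
Nop2: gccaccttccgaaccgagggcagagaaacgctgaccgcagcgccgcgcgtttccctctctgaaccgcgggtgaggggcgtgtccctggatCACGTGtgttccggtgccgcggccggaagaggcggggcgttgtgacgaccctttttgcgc
Rrn3: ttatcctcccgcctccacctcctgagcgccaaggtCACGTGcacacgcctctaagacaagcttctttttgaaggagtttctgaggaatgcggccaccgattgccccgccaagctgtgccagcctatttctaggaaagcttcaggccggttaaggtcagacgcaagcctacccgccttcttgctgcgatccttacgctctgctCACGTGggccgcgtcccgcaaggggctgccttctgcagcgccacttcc

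The 4 factors of RNA polymerase I transcription showed no shared direction, with 2 differences below 0, 2 above and a median of 0.01. Polr1b, the second largest catalytic subunit, read 6.44, 6.31, 6.17, 6.32 and 5.96 on transgenic arrays 1 to 5, against 6.78, 6.42, 6.35, 6.11 and 6.21 on wild-type arrays 1 to 5. The groups overlapped, with wild-type array 1 highest and transgenic array 5 lowest, and the difference was -0.13 (SE 0.13, limma adjusted p = 0.949). Polr1a, the largest subunit, read 6.99, 7.55, 7.53, 7.25 and 6.87 on the transgenic arrays, against 7.66, 7.61, 6.80, 6.61 and 6.91 on the wild-type arrays. Its wild-type arrays parted by array set, arrays 1 and 2 being above arrays 3 to 5, and the group difference of 0.12 (SE 0.23) was within that spread. Rrn3, which brings the polymerase to the ribosomal gene promoter and whose promoter is shown above, had equal means of 8.61 ± 0.36 in transgenic HSCs and 8.61 ± 0.31 in wild-type HSCs (SD, n = 5 each). Polr1c, a subunit shared with RNA polymerase III, differed by 0.02 (SE 0.11).

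Of the 5 multifunctional proteins of the nucleolus, 4 had differences above 0, none past the threshold. Nolc1, a chaperone of snoRNPs, read 7.93, 8.32, 7.45, 7.99 and 7.91 on the transgenic arrays, against 8.05, 8.27, 7.91, 8.27 and 8.24 on the wild-type arrays. Transgenic array 3 was the lowest and transgenic array 2 the highest of all 10 arrays, and the difference was -0.23 (SE 0.14, adjusted p = 0.893). Npm1, the histone and ribosome chaperone nucleophosmin, read 11.54, 11.59, 11.73, 11.43 and 11.55 on the transgenic arrays, against 11.62, 11.58, 11.59, 11.32 and 11.28 on the wild-type arrays. It was among the steadiest members, and its difference of 0.09 had a 95% interval of -0.12 to 0.29. Ncl, the ribosomal RNA binding protein nucleolin, averaged 10.63 ± 0.19 in transgenic HSCs and 10.60 ± 0.24 in wild-type HSCs (SD, n = 5 each). The RNA helicase Ddx21 differed by 0.16 (SE 0.19), and Mybbp1a, a nucleolar protein that binds transcription factors, by 0.01 (SE 0.15).

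The 5 snoRNP proteins all had differences below 0, in the comparison over all arrays and within each array set, with a median of -0.18. That median is the value of Fbl, whose probe set is uncertain as described below. The other 4 were also below 0 throughout. Within set B the differences of Dkc1 (-0.02) and Fbl (-0.03) were close to 0. Rrp9 belongs to the U3 snoRNP, which guides the first cuts of the precursor. It read 5.82, 5.91, 5.33, 5.75 and 5.60 on the transgenic arrays, against 5.87, 6.12, 6.40, 6.37 and 6.13 on the wild-type arrays. The groups overlapped by 1 array each, as transgenic array 2 read just above wild-type array 1. The difference of -0.49 (SE 0.13, 95% interval -0.78 to -0.20) gave an adjusted p of 0.306 over all probe sets (limma). A two-sided exact permutation test of this gene alone gave p = 0.0159, where 0.00794 is the smallest possible. Rrp9 was picked as the member with the smallest p, and the permutation p does not allow for that choice. The array sets gave -0.30 (set A) and -0.62 (set B).

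The other snoRNP proteins differed by less. Nop56, a core protein of box C/D snoRNPs, read 9.18, 9.85, 9.12, 9.66 and 9.85 on the transgenic arrays, against 9.72, 9.75, 10.10, 9.84 and 9.97 on the wild-type arrays. Transgenic arrays 1 and 3 stood below all the other arrays, and the difference was -0.34 (SE 0.16, adjusted p = 0.771). Fibrillarin, Fbl, the methyltransferase of the same particles, differed by -0.18 (SE 0.09), and its second one-gene probe set by -0.08 (SE 0.11). The annotation assigns both probe sets to Fbl and does not say where in the genome either lies, so which of them reads the gene itself is not settled here. Nop58, the partner of Nop56, differed by -0.17 (SE 0.11), and Dkc1, the pseudouridine synthase of box H/ACA snoRNPs, by -0.09 (SE 0.11). Adjusted p-values of these 4 genes were between 0.771 and 0.958.

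Of the 11 factors of 40S assembly, 7 had differences below 0, with a median of -0.04. Imp4, a U3-associated protein whose promoter is shown above, read 7.64, 7.58, 7.34, 7.76 and 7.87 on the transgenic arrays, against 7.88, 7.85, 7.62, 7.87 and 7.84 on the wild-type arrays. All 3 transgenic arrays of set A lay below both wild-type arrays of that set, while the arrays of set B overlapped, and the difference was -0.17 (SE 0.10, adjusted p = 0.890). Wdr75, which links the early processome to transcription, read 8.61, 8.66, 8.80, 9.13 and 9.02 on the transgenic arrays, against 9.05, 8.88, 9.17, 8.64 and 9.01 on the wild-type arrays. The same order held in set A and not in set B, and the difference was -0.11 (SE 0.13).

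The remaining 40S factors differed by -0.14 to 0.20. Heatr1, a large early processome protein, averaged 8.11 ± 0.24 in transgenic HSCs and 7.92 ± 0.66 in wild-type HSCs (SD, n = 5 each), and Bysl, which acts on the late precursor, averaged 6.37 ± 0.34 in transgenic HSCs and 6.30 ± 0.63 in wild-type HSCs. Both were spread widely among the wild-type arrays, where Heatr1 ran between 7.08 and 8.58 and Bysl between 5.65 and 7.03, so their group differences of 0.20 (SE 0.27) and 0.07 (SE 0.28) had the widest errors of all members. Ltv1, an export and maturation factor, differed by -0.14, and the processome proteins Nop14, Wdr43 and Utp20 by -0.06, -0.05 and 0.03. The late factors Rrp12, Nob1 and Tsr1, of which Nob1 is the nuclease that finishes 18S ribosomal RNA, differed by -0.02, -0.04 and 0.04.

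Of the 11 measured factors of 60S assembly, 8 had differences below 0, with a median of -0.08. Gnl3, the nucleolar GTPase nucleostemin, read 9.48, 9.87, 9.54, 10.00 and 10.10 on the transgenic arrays, against 9.97, 9.86, 10.35, 9.91 and 10.02 on the wild-type arrays. Transgenic arrays 1 and 3 were the lowest and wild-type array 3 the highest, and the difference was -0.22 (SE 0.14, adjusted p = 0.893). Bop1 read 5.49, 5.70, 5.81, 6.17 and 6.0 on the transgenic arrays, against 6.01, 5.94, 5.77, 6.09 and 6.20 on the wild-type arrays. Bop1 forms the PeBoW complex with Pes1 and Wdr12, and these subunits differed by -0.17, 0.08 and -0.06, with no shared direction.

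Noc3l, a precursor export factor, differed by -0.18 (SE 0.19), and Ebna1bp2 by -0.12 (SE 0.16). The other 60S factors differed by at most 0.08 in either direction: Nop16 by -0.08, the RNA methyltransferase Nop2 by -0.08, Rrs1, which helps to place the 5S particle, by -0.03, Nip7 by 0.01, and the GTPase Gnl2 by 0.04. Nop2, with its E-box shown above, lay between 7.29 and 7.42 in transgenic HSCs and between 7.13 and 7.59 in wild-type HSCs. The probe set that Ppan shares with B130055M24Rik averaged 6.78 in transgenic HSCs and 7.01 in wild-type HSCs, a difference of -0.23 (SE 0.20) that cannot be assigned to either gene. Adjusted p-values of the 11 factors were between 0.893 and 0.997.

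**Figure D2:**
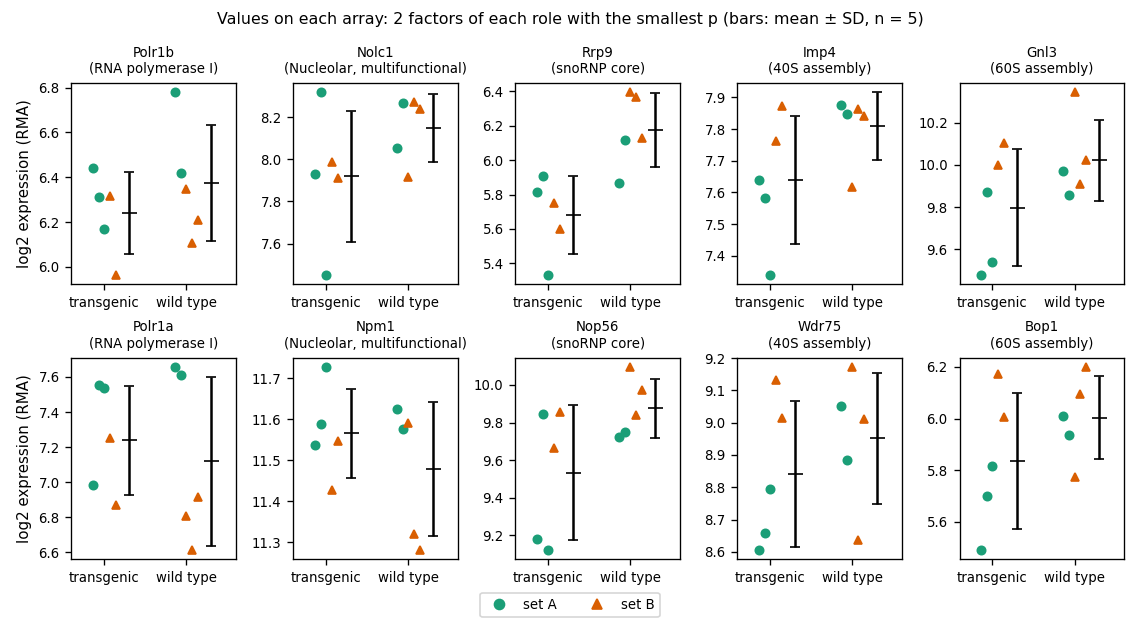
Log2 expression (y axis) on each transgenic and wild-type array for the 2 members of each role with the smallest p; circles are arrays of set A, triangles arrays of set B, and bars are mean ± SD (n = 5). The groups overlap in every panel, and in Polr1a the wild-type arrays separate by set.

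Many members deviated in the same direction on some arrays. On each array the deviation of a gene from its own mean over the 10 arrays was taken, and the median over the 36 members was used to describe the array. It was -0.10, 0.06, -0.12, 0.08 and -0.02 on transgenic arrays 1 to 5, against 0.09, 0.08, 0.10, -0.09 and -0.09 on wild-type arrays 1 to 5. The lowest arrays were transgenic 1 and 3, where 9 and 11 of the 36 members lay above their own mean. On transgenic arrays 2, 4 and 5 it was 22, 25 and 16, and on wild-type arrays 1 to 5 it was 27, 24, 22, 14 and 14. The ranges of the 2 groups overlapped almost wholly, and no p is given for a median over the chosen genes. The 102 other measured ribosome biogenesis factors had medians of -0.11, 0.06, -0.11, 0.09 and -0.004 on transgenic arrays 1 to 5. On wild-type arrays 1 to 5 theirs were 0.04, 0.05, 0.06, -0.06 and -0.01. Not every role followed: on transgenic array 3 the 5 multifunctional proteins had a median of 0.15. On transgenic array 5 the polymerase I factors had -0.33 and the 60S factors 0.08.

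**Figure D3:**
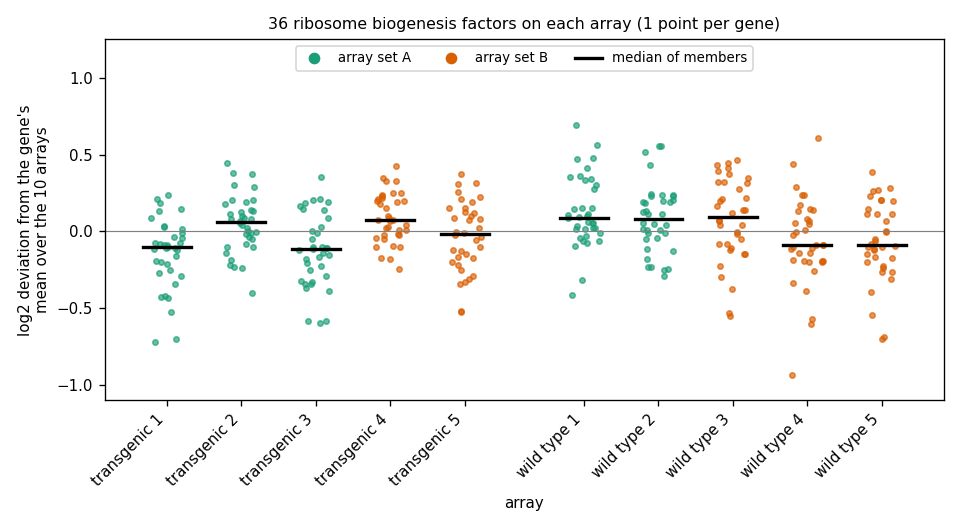
Deviation of each of the 36 members from its own 10-array mean (y axis, log2) on each array (x axis), coloured by array set, with the median as a bar. Transgenic arrays 1 and 3 have medians of -0.10 and -0.12, and the wild-type medians run between -0.09 and 0.10.

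The group difference was also taken within each array set. Within set A, 31 of 36 members were lower on the transgenic arrays (3 against 2 arrays), with a median difference of -0.20, while 51.1% of all tested probe sets were lower there. Within set B, 14 of 36 were lower (2 against 3 arrays), with a median of 0.05, against 54.2% of all tested probe sets. Other lists also changed between the sets. Of 102 other measured ribosome biogenesis factors, 76 were lower within set A and 44 within set B, with medians of -0.09 and 0.06. Of 55 measured cytosolic ribosomal protein genes, 40 were lower within set A and 19 within set B. Of 29 measured DNA replication genes, 28 and 29 were lower. The sign was the same in both sets for 15 members (41.7%) and for 55.0% of all tested probe sets. The members that were lower within both sets numbered 12 and included all 5 snoRNP proteins, 19 were lower within set A alone, 2 within set B alone, and 3 were higher within both. Of all 23410 tested probe sets, 7065 were lower within both sets, 4904 within set A alone and 5626 within set B alone, and 5815 were higher within both. All 11 of the 40S factors were lower within set A, and 1 of them within set B. No member passed the threshold within either set (limma), and whether the difference itself depends on the set was not tested, since the sets were defined from these values.

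**Figure D4:**
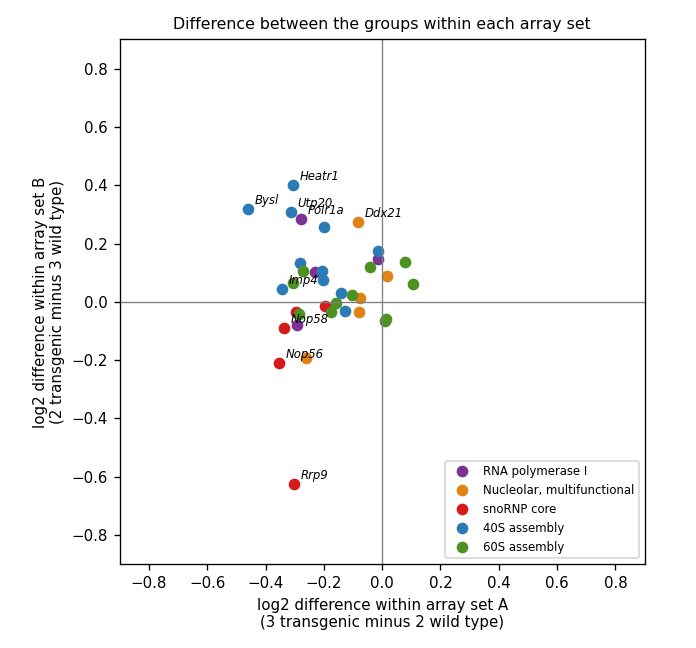
Log2 difference (transgenic minus wild type) within array set A (x axis) and within array set B (y axis), 1 point per member, coloured by role. Most points lie left of 0 on the x axis (31 of 36) and on both sides of 0 on the y axis, with Rrp9 lowest in set B.

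The level of some members differed between the array sets. Averaged over the groups, Heatr1, Bysl and Polr1a were higher in set A than in set B by 0.74, 0.71 and 0.58, while Noc3l, Ebna1bp2 and Ltv1 differed the other way, with set A minus set B at -0.48, -0.43 and -0.38. Higher values in set A were seen for 3 of 4 polymerase I factors, 4 of 5 multifunctional proteins, 2 of 5 snoRNP proteins, 5 of 11 40S factors and 3 of 11 60S factors, that is for 17 of the 36 members, and for 11865 of the 23410 tested probe sets. Whether the roles differ in this was not tested, and the sets were defined from these same values. With the set as a block, a choice made after seeing the data, 0 of 36 members passed the threshold, against 0.389% of all tested probe sets. Rrp9 and Nop58 then had an unadjusted p under 0.05 (limma), which is 5.56% of the members and 8.34% of all tested probe sets; their differences were -0.46 and -0.21 with adjusted p of 0.238 and 0.574. The residual SD of a member had a median of 0.22 without the block and 0.19 with it, and a block built from these values lowers it by construction. Without transgenic array 4, 0 members passed and the median difference was -0.10.

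Other transcripts were set beside the members' array medians, and not all of them followed the members. The endothelial cadherin Cdh5 was at 7.38 on transgenic array 1 and 7.70 on transgenic array 3, the other transgenic arrays lay between 5.58 and 5.86, and the wild-type arrays between 4.58 and 5.36. Cdh5 was singled out after its values were seen. Of 6 endothelial and stromal markers 3 had differences above 0 and 3 below, with a median difference of 0.02. Their mean levels, which Cdh5 enters with a difference of 1.48, lay between 5.23 and 5.64 in transgenic HSCs and between 4.95 and 5.27 in wild-type HSCs. Their median deviations lay between -0.09 and 0.08 in transgenic HSCs and between -0.12 and 0.07 in wild-type HSCs, with 0 of 6 past the threshold (limma) and 1, Cdh5, with an unadjusted p under 0.05. The 51 snoRNA probe sets had median deviations of -0.40 and -0.33 on transgenic arrays 1 and 3 and -0.22 and -0.24 on wild-type arrays 1 and 2. On transgenic array 2 their median was 0.09, and in set B it was -0.07 and 0.43 for transgenic HSCs and between 0.24 and 0.45 for wild-type HSCs. The members differed from this on wild-type arrays, with medians of 0.09 and 0.08 on arrays 1 and 2 and -0.09 on arrays 4 and 5. Across the groups as a whole, megakaryocyte and platelet markers averaged 6.22 to 6.60 per transgenic array and 6.87 to 7.50 per wild-type array. Of 6 measured genes 5 were lower, and 1 of these, Pf4, passed the threshold. The 1 higher gene differed by 1.28. All 6 had an unadjusted p under 0.05 (limma). With the set blocked, 2 lower genes and the higher gene passed. The 3 multipotent progenitor markers averaged 7.53 to 8.41 per transgenic array and 6.64 to 7.37 per wild-type array, with 0 past the threshold. All 3 differences were above 0 (median 1.34), and 2 had an unadjusted p under 0.05 (limma). Of 10 granulocyte and monocyte markers, 8 had differences above 0, with a median of 0.36; 1 had an unadjusted p under 0.05, 6 with the set blocked, and 0 passed either way (limma). Their mean level was 5.48, 5.48, 5.29, 5.91 and 6.69 on transgenic arrays 1 to 5, against 5.21, 5.08, 5.33, 5.54 and 5.53 on the wild-type arrays, so transgenic arrays 4 and 5 stood above all others. Those are the transgenic arrays of set B, where the members' median difference was 0.05. Of erythroid markers 3 of 6 were lower at an unadjusted p under 0.05, of T and NK cell markers 1 of 7 was lower and 1 higher, of B cell markers there were 0, and 0 of these lists' genes passed. The part of any of these in the members' values was not tested.

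Of 102 other measured ribosome biogenesis factors, 0 passed the threshold (limma), 8 lower and 1 higher had an unadjusted p under 0.05 (8.82%), and the median difference was -0.02. The smallest p-values belonged to Tsr2, a chaperone of a ribosomal protein, Rrp1b and the processome protein Tbl3. Tsr2 averaged 7.43 ± 0.16 in transgenic HSCs and 7.85 ± 0.21 in wild-type HSCs (SD, n = 5 each; adjusted p = 0.320), and Rrp1b averaged 7.23 ± 0.24 in transgenic HSCs and 7.61 ± 0.04 in wild-type HSCs (adjusted p = 0.368). Their differences were -0.43 and -0.38, and that of Tbl3 was -0.36 (SE 0.12).

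Genes for the ribosome's own proteins and for snoRNAs were set beside the factors. Of 55 measured cytosolic ribosomal protein genes, 0 had an adjusted or unadjusted p under 0.05 (limma), with a median difference of 0.01, and for 53 the 95% interval lay within 1.5-fold. Many ribosomal protein genes have near-identical processed copies, and 25 of the 80 listed genes were not matched to a one-gene probe set. The 5 measured snoRNA host genes, of 16 listed, all had differences below 0, with a median of -0.21 and none past the threshold. All 5 were lower in set A than in set B. Of the 51 snoRNA probe sets 35 had differences below 0, 0 passed the threshold, and Snora74a, with the smallest p, differed by -0.61 (SE 0.16, limma adjusted p = 0.291). The snoRNA probe sets were measured less precisely, with a median SE of 0.39. For 4 of the 51 the 95% interval lay within 1.5-fold.

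Myc itself differed more than any member. It read 9.93, 9.94, 9.55, 9.53 and 9.72 on the transgenic arrays, against 10.76, 10.79, 10.34, 10.04 and 10.31 on the wild-type arrays, with every transgenic array below every wild-type array. The difference was -0.72 (SE 0.15, limma adjusted p = 0.145) and did not pass in the reported fit. With array set blocked the adjusted p was 0.0186 (limma), which passes. That block was built from these same values and added after seeing the data. Max, the partner of MYC, differed by -0.07 (SE 0.07), Mycn by 0.08 and Mycl by 0.01. Of genes of cell division, which were set beside the members, all 29 measured DNA replication genes had differences below 0 (median -0.34, 16 with an unadjusted p under 0.05 and 0 past the threshold), as did 25 of 27 mitosis genes (median -0.20, 3 and 0). The median deviation of the mitosis genes was highest on transgenic array 1, at 0.41, where the ribosome biogenesis factors were low. On transgenic array 3, where the factors were also low, it was -0.12, and it was lowest on transgenic array 2, at -0.47.

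**Figure D5:**
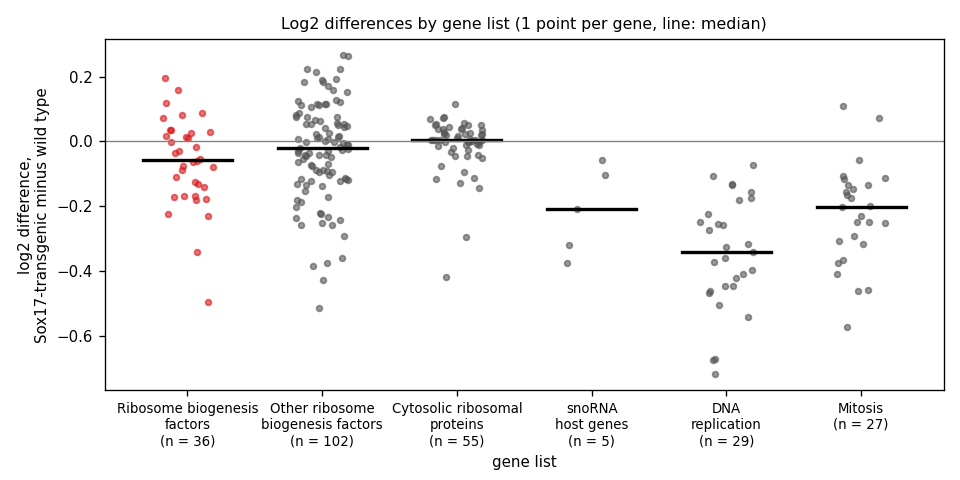
Log2 difference (transgenic minus wild type, y axis) of each gene in 6 lists (x axis), with the median as a bar. Ribosome biogenesis factors (median -0.06), other factors (-0.02) and ribosomal proteins (0.01) centre near 0, and DNA replication genes (-0.34) lie wholly below it.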

How the data were processed

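The authors deposited 1 table of log2 values with 35556 probe sets and 10 arrays, made by RMA with the R packages affy and limma named in the submitters' processing notes. As for versions, settings and genome build, these were not given in the sources used here. By its design, RMA brings all arrays to the same distribution of probe intensities, so a change shared by all transcripts does not show. Differences between dim probe sets are compressed. The array medians of the deposited values still differed, at 5.53 to 5.56 in set A and 5.45 to 5.51 in set B. The values were used as deposited. The platform annotation gave 1 gene symbol to 21789 probe sets and several to 1621, with 12146 unnamed here. The test was limma (version 3.58.1, under R 4.3.3) over the 23410 probe sets with a symbol (lmFit and eBayes, two-sided, Benjamini-Hochberg over all of them, threshold 0.05), transgenic minus wild type. Groups come from the sample titles. Precision depends on the number of arrays and on the spread of each probe set, as there is no read count behind a value. With 5 arrays per group, the SE of a member's difference ran between 0.09 and 0.28. The script was tested on simulated data.

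The members and gene lists were chosen with earlier results of these data known. Values on each array are given for the 2 members of each role with the smallest p, and of other pathway lists up to 3 genes are named. The further gene lists were other ribosome biogenesis factors, ribosomal proteins, snoRNA host genes, snoRNAs, MYC family, DNA replication, mitosis and cell type markers. The promoters of 3 genes were chosen for their E-box before the start; those with it after the start are not shown. The alternatives were the replicate number as a block, other normalizations, filters and variance models, a floor, all probe sets of a gene averaged and leaving out each array. The array set as a block and fits within a set were added after seeing the data.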

Additional observations from a re-analysis of the deposited data

Results flagged for a closer look

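On 4 occasions among the 72 sets of 5 values (36 members in 2 groups), 1 array stood far from the other 4 of its group by Dixon's test at the 95% level, which chance alone gives in about 1 of 20 such sets. All 4 were wild-type arrays. Mybbp1a read 8.07 on wild-type array 2, where the others read 7.32 to 7.49. Imp4 read 7.62 on wild-type array 3, below 7.84 to 7.88 on the others. Rrp12 read 6.10 on wild-type array 1 (5.54 to 5.67 on the others), and Nop16 read 8.77 on the same array (8.33 to 8.42 on the others).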

How the results depend on the processing

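The count of members past the threshold was 0 in the reported fit and under each of the 22 alternatives. The lowest adjusted p of any member was 0.213, for Rrp9 without wild-type array 1; over the alternatives the difference of Rrp9 ran between -0.62 and -0.30 and its adjusted p between 0.213 and 0.885. Members with an unadjusted p under 0.05 (limma) numbered 1 as reported and 2 with the replicate block, with quantile normalization, with a trended robust variance and with array set blocked, 4 within set A, and 1 to 3 leaving out 1 array (3 without transgenic array 2 or 5, 2 without transgenic array 4). Rrp9 was among them except within set A. Of all tested probe sets, 6.59% had such a p as reported and 8.34% with array set blocked. The share is not given for the other fits, so these counts are not read as a result about the members. The replicate numbers share only a number: deviations of same-numbered arrays correlated at 0.24, 0.35, -0.14, 0.11 and 0.33, and 0 of 5 transgenic arrays correlated best with their own number. The replicate block gave 33 probe sets past the threshold, as many as without it. The median difference of the members was -0.20 using only array set A, 0.052 using only array set B, and between -0.10 and -0.03 leaving out 1 array. Among all probe sets, 33 passed as reported, 15 with every probe set of the table tested, 8 with values floored at the 20th percentile, 91 with the array set as a block, 4 within set A, 6 within set B, and 15 to 71 leaving out 1 array: 71 without transgenic array 2, 15 and 19 without transgenic arrays 4 and 3, and 16 to 20 without any 1 wild-type array. Bysl was -0.46 within set A, against 0.07 over all arrays; the cause was not tested.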
